A study of Mus musculus with 8 samples.

Results

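The 34 genes described here encode cell adhesion and guidance molecules: integrins, cadherins, immunoglobulin adhesion molecules, tight junction proteins, ephrins and their Eph receptors, semaphorins, Slit ligands with their Robo receptors, and the cytoplasmic partners beta-catenin and vinculin. They were chosen by family membership and found by symbol, and all 34 were present among the 51886 gene symbols of the table. Granulosa cells, the somatic cells that surround the oocyte in the ovarian follicle, came from PGR-A KO mice in 4 libraries and from wild-type (WT) mice in 4 libraries. PGR-A is an isoform of the progesterone receptor, a nuclear receptor needed for ovulation. Mice of both genotypes were 21 to 27 days old. All received 5 IU of eCG, which drives follicle growth, then 5 IU of hCG after 46 h, which triggers ovulation, and cells were taken 8 h after hCG. Each library pooled 2 to 3 mice, so a p-value measures the spread between pools. How the knockout was made, and in which cells PGR-A is lost, is not given in the sources used here.

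Levels are TPM, each gene's share of all transcripts, which allows for transcript length and can be compared between genes. The table holds no counts, so the sequencing depth is unknown. Pgr, summed over its isoforms and so no measure of PGR-A loss, ranged from 2.01 to 3.52 TPM in PGR-A KO and from 0.756 to 1.56 TPM in WT (limma adjusted p = 0.445). All 10 granulosa markers examined were detected, and their summed level ranged from 4738 to 6888 TPM in PGR-A KO and from 5703 to 7807 TPM in WT. Correlations between libraries across all genes tested ran from 0.970 to 0.991. In 12.6% of the genes tested the 4 highest libraries were replicates 1, 2 and 4 of PGR-A KO with replicate 1 of WT, and in 1514 of the 14472 genes these were the 4 lowest, so replicate 3 of PGR-A KO and replicate 1 of WT often stood with the other genotype.

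Integrins are pairs of an alpha and a beta subunit that bind matrix proteins outside the cell and link to the actin skeleton inside it. Cadherins bind like cadherins on the neighbouring cell and are held to actin through beta-catenin and other catenins. Claudins and occludin form tight junctions, which ZO-1 (Tjp1) anchors. Ephrins, semaphorins and Slits were first known for steering axons, and repel or attract cells through Eph, plexin and neuropilin, and Robo receptors. In the follicle, granulosa cells are joined by N-cadherin, rest on a laminin-rich basal lamina, and change their contacts as ovulation nears.

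A few promoters are shown: of the gene with the lowest p between genotypes (Cldn1), of the gene with the largest positive difference (Sema3a), and of 2 abundant genes with a wide spread between libraries (Itga2 and Robo2). Each line gives the 250 bases before the transcription start, 5′ to 3′ on the gene's strand, from RefSeq on GRCm38.p6. Capitals mark motifs found in either orientation: the GC box GGGCGG in Cldn1 and the RUNX motif TGTGGT in Sema3a.
Cldn1 (chr16:26371840-26372089, minus strand): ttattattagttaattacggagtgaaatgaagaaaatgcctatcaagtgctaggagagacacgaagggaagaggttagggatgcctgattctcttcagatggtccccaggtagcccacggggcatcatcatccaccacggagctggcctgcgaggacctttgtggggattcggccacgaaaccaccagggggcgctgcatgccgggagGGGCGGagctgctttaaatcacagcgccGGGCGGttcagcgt
Sema3a (chr5:13396534-13396783, plus strand): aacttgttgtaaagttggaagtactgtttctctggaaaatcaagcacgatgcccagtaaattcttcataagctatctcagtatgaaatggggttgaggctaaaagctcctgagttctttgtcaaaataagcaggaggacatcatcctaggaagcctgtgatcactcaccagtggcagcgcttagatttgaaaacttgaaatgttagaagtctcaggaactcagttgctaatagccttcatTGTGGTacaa
Itga2 (chr13:114932101-114932350, minus strand): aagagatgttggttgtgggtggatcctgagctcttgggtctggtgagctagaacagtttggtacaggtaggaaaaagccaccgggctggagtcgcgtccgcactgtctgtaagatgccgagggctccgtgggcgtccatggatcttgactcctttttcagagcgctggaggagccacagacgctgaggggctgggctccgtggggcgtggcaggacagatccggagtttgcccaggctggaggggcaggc
Robo2 (chr16:74411826-74412075, minus strand): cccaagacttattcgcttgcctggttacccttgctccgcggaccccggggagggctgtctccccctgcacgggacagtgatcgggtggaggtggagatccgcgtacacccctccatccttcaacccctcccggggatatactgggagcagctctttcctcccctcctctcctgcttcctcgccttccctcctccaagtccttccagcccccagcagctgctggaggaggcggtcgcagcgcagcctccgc

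RefSeq windows matched 28 of the 34 genes, in 34 windows. For Robo2 the table has 3 starts, and the one at the gene start of GENCODE M21 is shown. The Sema3a start lies inside the GENCODE M21 gene, and the TPM of a gene does not tell starts apart. The motifs were searched on both strands. The GC box was in 23 of the 34 windows (67.6%), against 42.6% of 21263 windows of protein-coding genes and 32.7% of all 32851 windows. The RUNX motif was in 2 windows (5.88%; all windows 14.0%), those of Sema3a and Itga3. The TEAD motif GGAATG was in 3 (8.82%; all windows 12.6%), those of Efnb2, Itgb1 and Vcl. The core ACANNNTGT shared by progesterone and glucocorticoid receptor elements was in 0 of the 34 windows, the AP-1 motif TGANTCA in 0 and the CRE TGACGTCA in 0. All windows held these in 5.83%, 6.75% and 1.55% of cases. No motif found overlapped another in the windows printed, and a match describes letters, not binding.

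The levels spanned more than 3 orders of magnitude. Averaged over all 8 libraries, 7 genes stood at 100 TPM or more, 14 between 10 and 100 TPM, 12 between 1 and 10 TPM and 1 under 1 TPM. The highest were Ctnnb1 (356 TPM), which encodes beta-catenin, Itgb1 (254 TPM), Itgav (162 TPM), Itgb5 (137 TPM), Itga2 (121 TPM), Vcl (121 TPM) and Robo2 (119 TPM). The lowest was L1cam, a neural adhesion molecule, at 0.151 TPM. L1cam ranged from 0.109 to 0.151 TPM in PGR-A KO and from 0.128 to 0.265 TPM in WT and was the only member under the minimum of 1 TPM in 4 of 8 libraries, so 33 genes were tested.

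**Figure D1:**
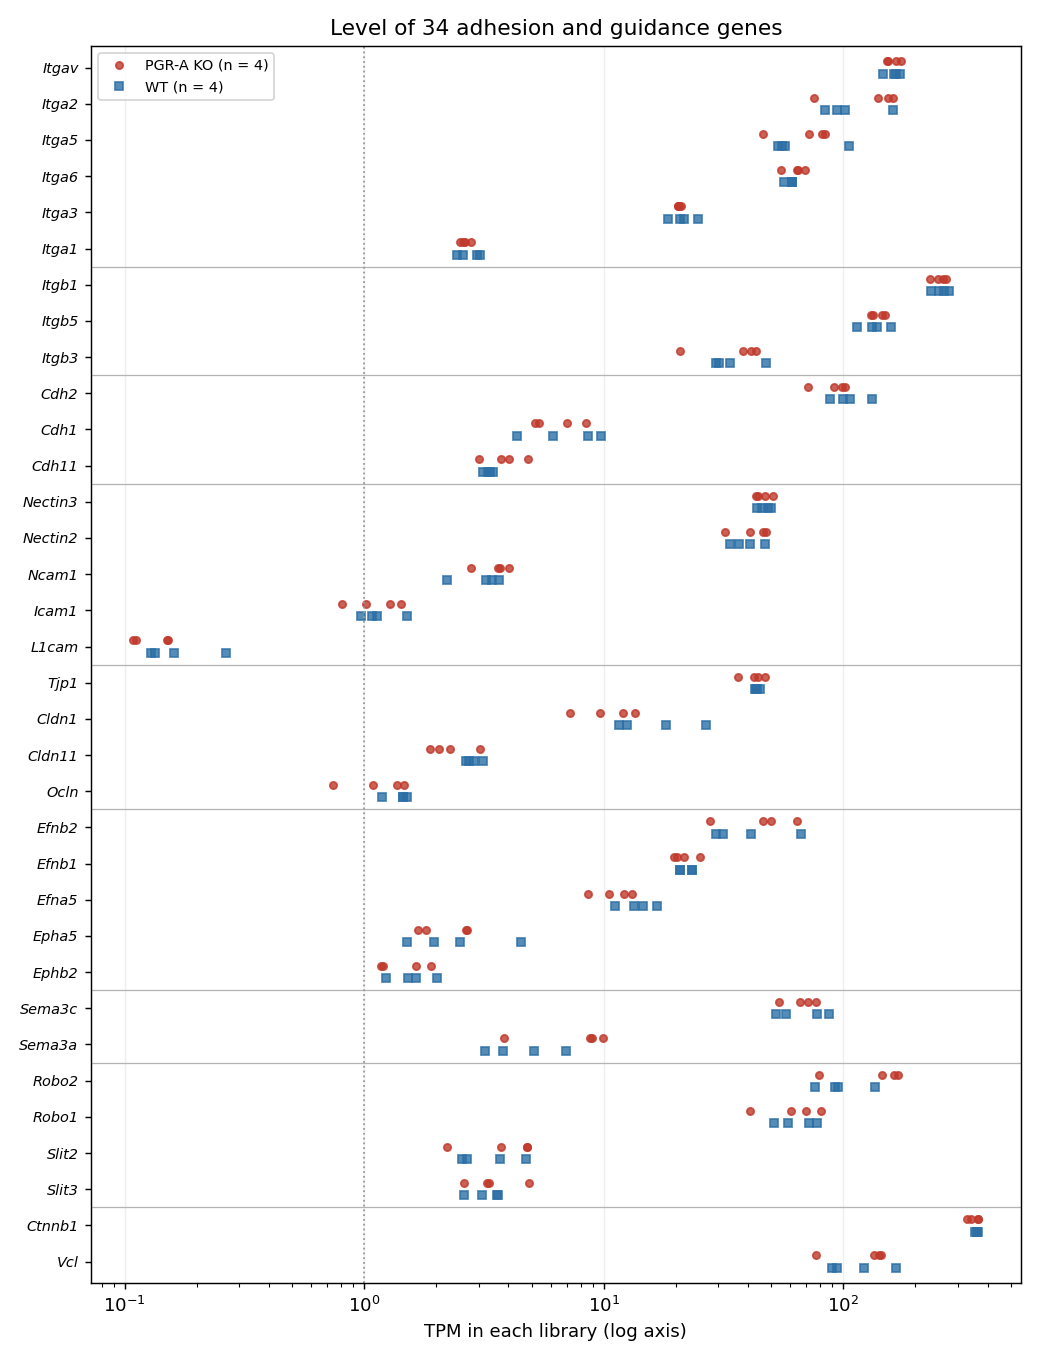
TPM of the 34 genes in each library on a log axis, PGR-A KO (circles, n = 4) above WT (squares, n = 4), with families divided by lines and the dotted line at 1 TPM. Levels run from L1cam at 0.151 TPM to Ctnnb1 at 356 TPM (means of 8 libraries), and the genotypes overlap in each gene.

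The comparison of PGR-A KO with WT asks which transcripts depend on PGR-A in cells shortly before ovulation. None of the 33 adhesion and guidance genes tested passed an adjusted p of 0.05 with limma on log2(TPM + 1), where 0.0138% of all 14472 genes tested passed. At an unadjusted p under 0.05 there was 1 of 33 (3.03%), Cldn1, which was lower in PGR-A KO, against 6.31% of all genes (0.974% higher and 5.33% lower in PGR-A KO). The genotypes overlapped in all 33 genes, while they did not overlap in 3.42% of all genes. The median log2 difference was -0.02 for the members and -0.02 for all genes tested. Means of log2(TPM + 1) were higher in PGR-A KO for 13 genes and lower for 20 (60.6%, against 57.4% of all genes). With TMM factors the split was 19 higher and 14 lower (42.4% lower, against 46.3% of all genes), and with quantile normalization 20 higher and 13 lower (39.4%, against 45.6%). The unadjusted calls over all genes, 141 higher and 772 lower, became 350 and 500 with TMM factors and 385 and 525 with quantile normalization.

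The intervals say how large a difference could be. The 95% interval of the log2 difference lay within 1 in both directions in 30 of the 33 genes (90.9%, against 95.5% of all genes tested). It lay within 0.5 in 18 (54.5%, against 70.3%). As log2(TPM + 1) understates the change of low genes, these bounds do not limit the fold change of such genes. The exceptions to the wider bound were Cldn1 (-1.21 to -0.01), Sema3a (-0.05 to 1.24) and Robo2 (-0.12 to 1.02). The log2 difference was smaller than the SD between replicates in 27 of the 33 genes (81.8%, against 76.7% of all genes tested).

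**Figure D2:**
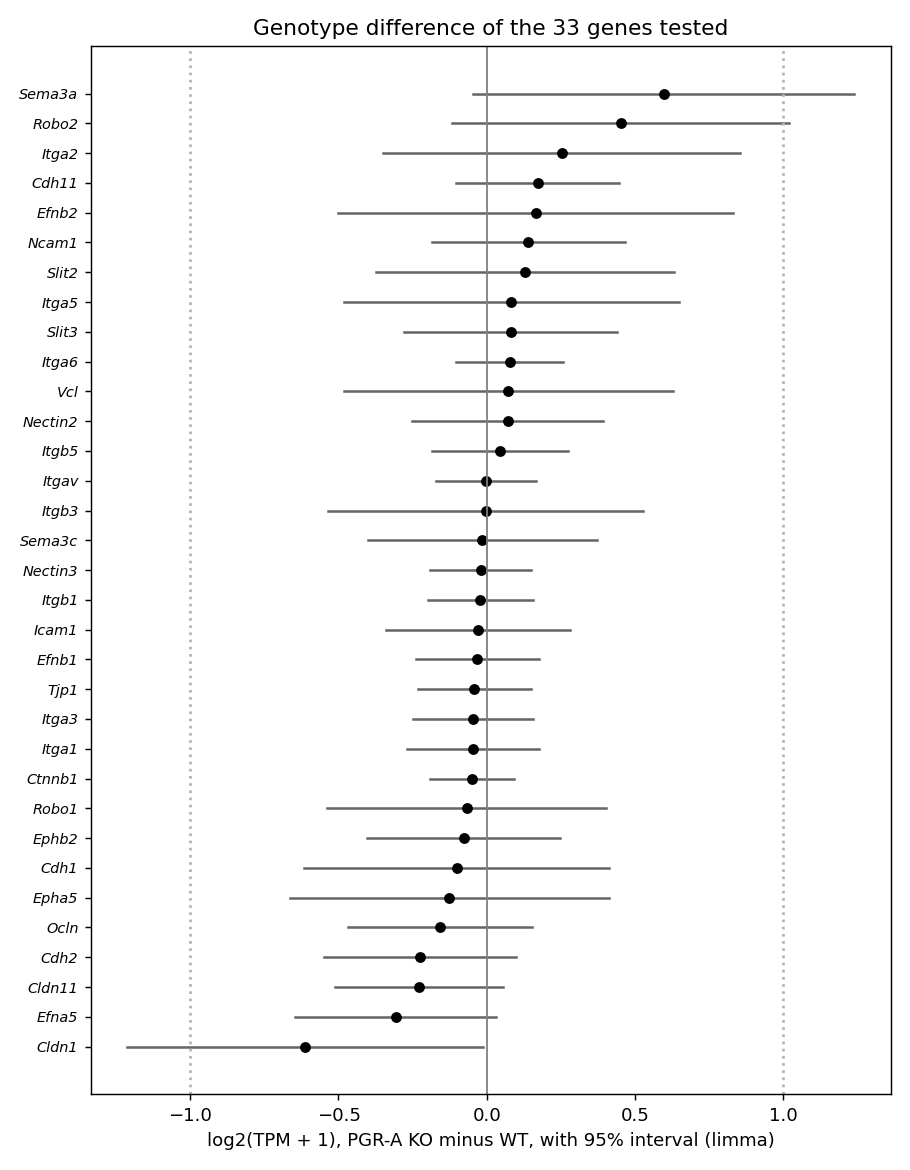
Difference of log2(TPM + 1), PGR-A KO minus WT, for the 33 genes tested, with limma's 95% interval and dotted lines at a log2 difference of 1 in each direction. Only the interval of Cldn1 (-1.21 to -0.01) does not hold 0.

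Of the integrin alpha subunits, Itgav, which binds RGD-bearing proteins such as vitronectin, and Itga2, a collagen receptor, were the most abundant. Itgav made up 36.2% ± 4.14 of the summed alpha TPM in PGR-A KO and 38.7% ± 5.13 in WT (SD, n = 4 each). Itga2 made up 28.8% ± 5.39 in PGR-A KO and 25.6% ± 4.02 in WT. Itga5, the fibronectin receptor subunit, gave 15.5% ± 1.89 in PGR-A KO and 15.7% ± 3.31 in WT. Behind these came the laminin receptor subunits Itga6, with 14.2% ± 2.50 in PGR-A KO and 14.3% ± 1.74 in WT, and Itga3, with 4.64% ± 0.703 in PGR-A KO and 5.11% ± 0.732 in WT. The other collagen receptor subunit, Itga1, stayed under 0.8% in each library.

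Itga2 (chromosome 13, 114833081 to 114932100, minus strand, mm10) had 161, 153, 75.5 and 140.1 TPM in the PGR-A KO libraries and 161, 94.4, 102 and 83.5 TPM in the WT libraries, with replicate 3 of PGR-A KO the lowest of all 8. WT replicate 1 stood among the high PGR-A KO libraries. The log2 difference was 0.25 (SE 0.27, limma adjusted p = 0.908). It ran from 0.14 to 0.50 with a library left out, and the limma unadjusted p from 0.0329 to 0.644. The value of 0.50 and the lowest p (limma adjusted p = 0.433) were those without replicate 3 of PGR-A KO, the lowest library. Itga5 had 83.9, 81.3, 46.1 and 71.9 TPM in PGR-A KO and 105, 57.3, 55.6 and 53.1 TPM in WT, where replicate 1 lay far above the other WT libraries. Its log2 difference was 0.08 (SE 0.25, limma adjusted p = 0.962). Itgav (152 to 173 TPM in PGR-A KO, 146 to 173 TPM in WT), Itga6 (55.0 to 69.2 TPM in PGR-A KO, 56.4 to 61.0 TPM in WT), Itga3 (20.4 to 21.0 TPM in PGR-A KO, 18.5 to 24.7 TPM in WT) and Itga1 (2.50 to 2.78 TPM in PGR-A KO, 2.43 to 3.03 TPM in WT) were narrow in both genotypes. The subunits that vary widely between libraries were thus Itga2 and Itga5, not the more abundant Itgav.

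Itgb1, the beta subunit shared by the collagen, laminin and fibronectin receptors, held 59.0% ± 1.13 of the summed beta TPM in PGR-A KO and 60.0% ± 3.52 in WT (SD, n = 4 each). It had 262, 268, 229.5 and 248 TPM in PGR-A KO and 264, 275, 252 and 232 TPM in WT. Both genotypes covered nearly the same range, with a log2 difference of -0.02 (SE 0.08, 95% interval -0.20 to 0.15, limma adjusted p = 0.971). Itgb5, which pairs with alpha V, ranged from 130.2 to 149 TPM in PGR-A KO and from 114 to 158 TPM in WT. Itgb3, the other partner of alpha V among the members, ranged from 20.9 to 43.2 TPM in PGR-A KO and from 29.3 to 47.5 TPM in WT. Itgb3 held 5.23% of the summed beta TPM in PGR-A KO replicate 3 and 9.12% to 9.47% in the other PGR-A KO libraries, against 6.85% to 10.7% in WT.

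**Figure D3:**
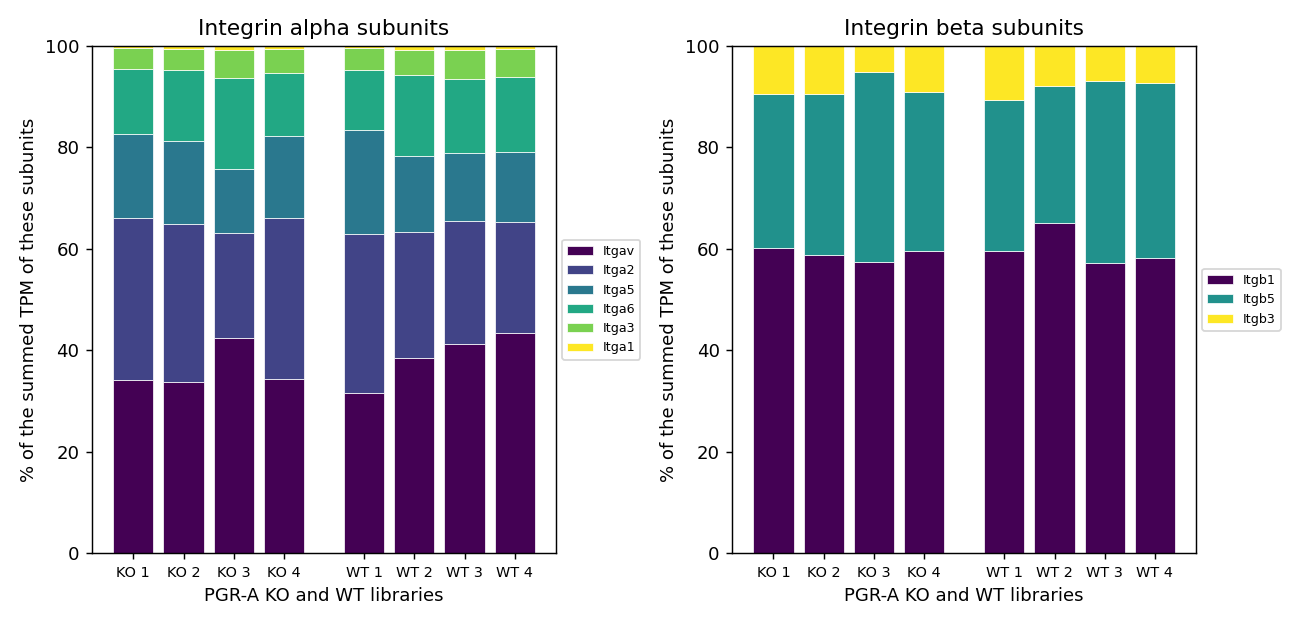
Share of each alpha subunit (left) and each beta subunit (right) in the summed TPM of these subunits, 4 PGR-A KO libraries left of 4 WT libraries. Itgb1 holds between 57.2% and 65.1% of the beta sum in each library, and Itga2 between 20.8% and 31.8% of the alpha sum.

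Cdh2, N-cadherin, was the main cadherin of the members in both genotypes. It had 98.5, 101, 71.4 and 91.8 TPM in PGR-A KO and 132, 107, 99.3 and 88.4 TPM in WT. Replicate 3 was lowest in PGR-A KO and in the whole set, replicate 1 of WT highest, and the groups overlapped (log2 difference -0.23, SE 0.14, limma adjusted p = 0.827). Its log2 difference was -0.12 without either of these libraries alone and -0.0095 without both. Cdh1, E-cadherin, known from epithelia and the oocyte, ranged from 5.18 to 8.40 TPM in PGR-A KO and from 4.35 to 9.70 TPM in WT. Its 3 highest libraries were replicate 3 of PGR-A KO at 8.40 TPM and replicates 1 and 4 of WT at 8.60 and 9.70 TPM. The ratio of Cdh2 to Cdh1 ran from 8.50 to 18.4 in PGR-A KO and from 9.11 to 24.5 in WT. Cdh11, a cadherin of mesenchymal cells, ranged from 3.03 to 4.81 TPM in PGR-A KO and from 3.14 to 3.44 TPM in WT. Cdh2 stood at 21.1 to 26.5 times Cdh11 in PGR-A KO and at 27.0 to 41.9 times in WT.

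Markers of other cells were also measured. Surface epithelium markers summed to 119.6 to 128 TPM in PGR-A KO and 123 to 161 TPM in WT, with lower means in PGR-A KO for 10 of 10 genes. Oocyte markers summed to 673 to 1216 TPM in PGR-A KO and 486 to 935 TPM in WT, with higher means in PGR-A KO for 8 of 8 genes. Leukocyte markers summed to 54.6 to 134 TPM in PGR-A KO and 84.2 to 134 TPM in WT, with lower means in PGR-A KO for 8 of 9 tested genes. Endothelial markers summed to 16.3 to 29.2 TPM in PGR-A KO and 21.4 to 43.8 TPM in WT, theca and stroma markers to 109 to 152 TPM in PGR-A KO and 108 to 129 TPM in WT, and smooth muscle and pericyte markers to 63.1 to 91.5 TPM in PGR-A KO and 62.9 to 103 TPM in WT. Erythroid genes summed to 3458 to 5918 TPM in PGR-A KO and 1634 to 10744 TPM in WT. Over all genes tested, means were lower in PGR-A KO for 57.4%. No marker on these lists was at 0 in all libraries. In bulk RNA, fewer cells of a type and less RNA per cell cannot be told apart, and the part of these cells in the results was not tested.

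Among the immunoglobulin adhesion molecules, Nectin3 and Nectin2, which start cell contacts beside cadherins, made up most of the level. Nectin3 had 43.0, 44.2, 50.7 and 47.0 TPM in PGR-A KO and 43.7, 49.7, 48.4 and 45.6 TPM in WT. The genotypes differed by -0.02 on the log2 scale (SE 0.08, 95% interval -0.19 to 0.15, limma adjusted p = 0.972). Nectin2 ranged from 32.0 to 47.6 TPM in PGR-A KO and from 33.5 to 46.9 TPM in WT. Nectin3 was highest and Nectin2 lowest in PGR-A KO replicate 3 among the PGR-A KO libraries. Ncam1, a neural cell adhesion molecule, ranged from 2.80 to 4.02 TPM in PGR-A KO and from 2.22 to 3.66 TPM in WT. Icam1, a ligand of leukocyte integrins, ranged from 0.805 to 1.42 TPM in PGR-A KO and from 0.972 to 1.51 TPM in WT. Within its genotype, Icam1 was highest in replicate 3 of PGR-A KO and replicate 4 of WT, the libraries with the highest leukocyte marker sums (134 TPM each). PGR-A KO replicate 4 was the lowest of its genotype in both. Replicate 2 of WT had the lowest Icam1 of WT, yet a higher marker sum (96.9 TPM) than WT replicates 1 and 3 (84.2 and 91.4 TPM). The part of leukocytes in the level of Icam1 was not tested.

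Cldn1 (claudin 1, chromosome 16, 26356642 to 26371841, minus strand, mm10), whose GC boxes are printed above, had the lowest p of the members. It stood at 13.5, 9.63, 7.25 and 12.0 TPM in PGR-A KO and at 26.8, 18.2, 12.4 and 11.6 TPM in WT. WT replicates 1 and 2 were above all PGR-A KO libraries, while WT replicates 3 and 4 lay among them. The mean was 10.6 ± 2.75 TPM in PGR-A KO and 17.3 ± 6.99 TPM in WT (SD, n = 4 each). The log2 difference was -0.61 (SE 0.27, limma unadjusted p = 0.0461, adjusted p = 0.783), and the exact 2-sided permutation p was 0.143. With a library left out the log2 difference lay between -0.77 and -0.39, the smaller size being that without WT replicate 1. With TMM factors, quantile normalization, no filter or no trend, the unadjusted p of Cldn1 missed 0.05, and over all settings its adjusted limma p ran from 0.378 to 1.00. With replicate 3 of PGR-A KO and replicate 1 of WT both left out it was -0.23 (limma unadjusted p = 0.239). Surface epithelium markers summed to 122, 123, 128 and 119.6 TPM in PGR-A KO and to 157, 129, 123 and 161 TPM in WT. Like Cldn1, these markers had lower means in PGR-A KO, in 10 of 10 genes. WT replicates 1, 2 and 3 had the same order in both, but replicate 4 had the highest sum (161 TPM) and the lowest Cldn1 of WT (11.6 TPM). In PGR-A KO, replicate 3 had the highest sum (128 TPM) and the lowest Cldn1 (7.25 TPM). The part of these markers in the difference was not tested.

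Cldn11, the claudin known from Sertoli cells and myelin, had 2.27, 2.05, 3.03 and 1.89 TPM in PGR-A KO and 2.66, 2.75, 3.14 and 2.87 TPM in WT. PGR-A KO replicates 1, 2 and 4 lay below all WT libraries and replicate 3 lay among them (log2 difference -0.23, SE 0.13, limma adjusted p = 0.798). Ocln, occludin, ranged from 0.742 to 1.46 TPM in PGR-A KO and from 1.19 to 1.51 TPM in WT. Tjp1, the ZO-1 scaffold, had 44.1, 47.3, 36.2 and 42.5 TPM in PGR-A KO and 43.2, 42.9, 44.8 and 43.6 TPM in WT. The WT libraries of Tjp1 lay within 2 TPM of each other, with PGR-A KO replicates 3 and 4 below them and replicates 1 and 2 at 44.1 and 47.3 TPM (log2 difference -0.04, SE 0.08, limma adjusted p = 0.953). All tight junction members, Cldn1, Cldn11, Ocln and Tjp1, had lower means in PGR-A KO, each short of the adjusted threshold. Means were lower for 57.4% of all genes tested, and the other tight junction genes, given below, were divided 6 higher and 8 lower.

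**Figure D4:**
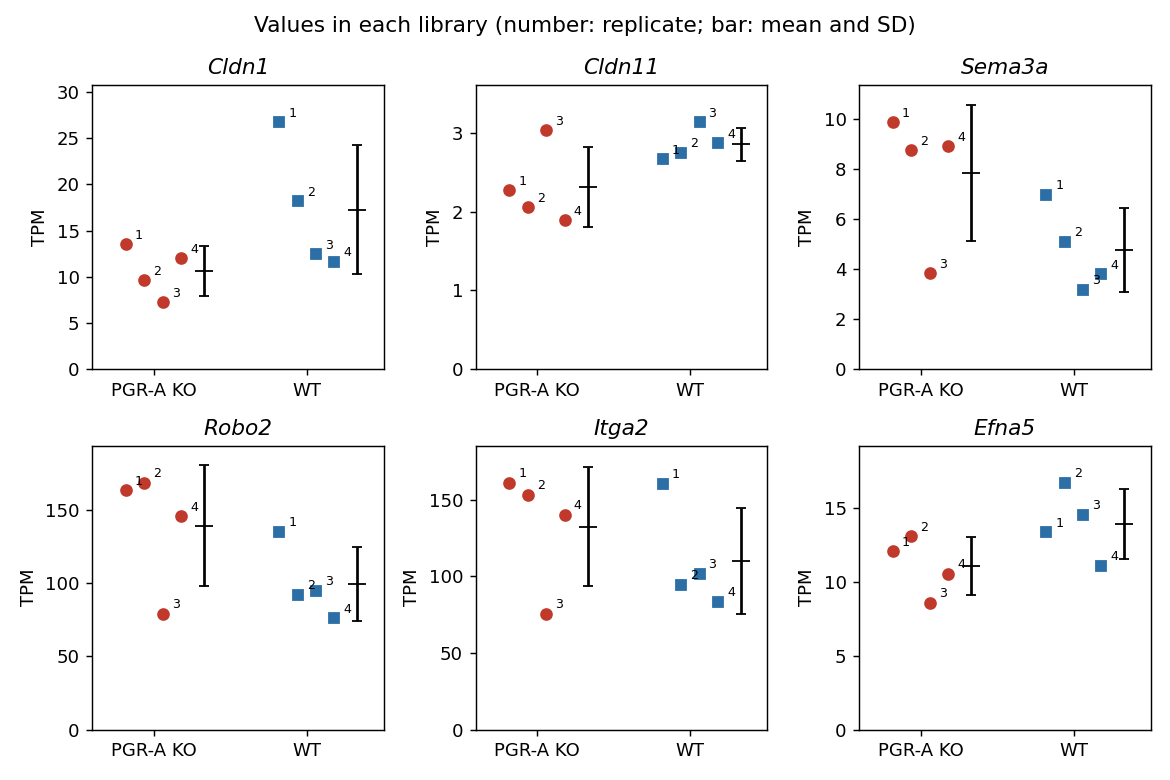
TPM of Cldn1, Cldn11, Sema3a, Robo2, Itga2 and Efna5 in each library, PGR-A KO (circles) left of WT (squares), with replicate numbers and bars for the mean and SD (n = 4). Replicate 3 of PGR-A KO lies below the other PGR-A KO libraries in Sema3a (3.83 TPM), Robo2 (79.3 TPM) and Itga2 (75.5 TPM).

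Efnb2, a transmembrane ephrin, was the highest of the Eph and ephrin members at 63.8, 46.1, 27.6 and 49.7 TPM in PGR-A KO and 66.3, 41.0, 31.4 and 29.5 TPM in WT. Its lowest library was PGR-A KO replicate 3 and its highest WT replicate 1 (log2 difference 0.17, SE 0.30, limma adjusted p = 0.948). Efnb1, the related ephrin, was steadier, with 19.7 to 25.2 TPM in PGR-A KO and 20.8 to 23.4 TPM in WT. Efna5, an ephrin held by a lipid anchor, had 12.1, 13.1, 8.59 and 10.6 TPM in PGR-A KO and 13.4, 16.7, 14.5 and 11.1 TPM in WT. WT replicates 1, 2 and 3 of Efna5 were above all PGR-A KO libraries (log2 difference -0.31, SE 0.15, limma unadjusted p = 0.0715, adjusted p = 0.795). Its log2 difference was -0.20 without replicate 3 of PGR-A KO. Both receptors among the members were low: Epha5, which binds ephrin-A5, ranged from 1.68 to 2.69 TPM in PGR-A KO and from 1.51 to 4.53 TPM in WT, and Ephb2, which binds B ephrins, from 1.18 to 1.90 TPM in PGR-A KO and from 1.24 to 2.02 TPM in WT. The ligands Efnb2, Efnb1 and Efna5 thus each exceeded these receptors in every library; Ephb4, a receptor outside the members, stood near Efnb1 in level and is given below.

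Sema3c, a secreted semaphorin, had 76.9, 66.0, 54.1 and 70.9 TPM in PGR-A KO and 77.6, 86.8, 57.7 and 52.2 TPM in WT. The groups overlapped widely (log2 difference -0.01, SE 0.17, limma adjusted p = 0.993). Sema3a (chromosome 5, 13125414 to 13602565, plus strand, mm10), a secreted repellent known to act through Nrp1, had the largest positive log2 difference of the members, which missed the threshold. It stood at 9.89, 8.77, 3.83 and 8.92 TPM in PGR-A KO and at 6.98, 5.09, 3.18 and 3.80 TPM in WT. PGR-A KO replicates 1, 2 and 4 were above all WT libraries, and replicate 3 was below WT replicates 1 and 2. The log2 difference was 0.60 (SE 0.29, limma unadjusted p = 0.0653, adjusted p = 0.791), and the exact 2-sided permutation p was 0.143. With a library left out the log2 difference ran from 0.46 to 0.87. Sema3a made up 6.61% to 11.7% of the summed semaphorin members in PGR-A KO and 5.22% to 8.25% in WT.

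Among the receptors of Slits, Robo2 was higher than Robo1 in each library. Robo2 (chromosome 16, 73891839 to 74411825, minus strand, mm10) had 163, 169, 79.3 and 146 TPM in PGR-A KO and 135, 92.1, 94.9 and 76.3 TPM in WT. Its 3 highest libraries were replicates 1, 2 and 4 of PGR-A KO, while replicate 3 was above only replicate 4 of WT (log2 difference 0.45, SE 0.25, limma unadjusted p = 0.106, adjusted p = 0.802, exact 2-sided permutation p = 0.171). With a library left out the log2 difference of Robo2 ran from 0.34 to 0.70, and the limma unadjusted p from 0.00288 to 0.246. The value of 0.70 and the lowest p (limma adjusted p = 0.316) were those without replicate 3 of PGR-A KO, the library that lay with WT. Robo1 ranged from 40.8 to 80.9 TPM in PGR-A KO and from 51.2 to 78.0 TPM in WT. The ligands were low, with Slit2 at 2.22 to 4.78 TPM in PGR-A KO and 2.56 to 4.76 TPM in WT, and Slit3 at 2.62 to 4.87 TPM in PGR-A KO and 2.60 to 3.60 TPM in WT. Summed, both receptors stood at 24.8 to 29.6 times both ligands in PGR-A KO and at 22.6 to 27.1 times in WT.

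The ratio of Robo2 to Robo1 set the genotypes apart, although neither gene did. It was 2.34, 2.09, 1.94 and 2.41 in PGR-A KO and 1.88, 1.18, 1.61 and 1.49 in WT, and the groups did not overlap. Its mean was 2.19 ± 0.216 in PGR-A KO and 1.54 ± 0.290 in WT (SD, n = 4 each). This ratio was singled out after its values were seen. Of 69 ratios of members of a family, 3 did not overlap (4.35%), against 30 of all 528 ratios of tested members (5.68%). The others were Cdh2 over Cdh11, given above, and Itga2 over Itgb3, at 3.55 to 3.93 in PGR-A KO and 2.79 to 3.38 in WT. The share within families is near that of all pairs, so the count is not a result about families.

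Ctnnb1, beta-catenin, was the steadiest member relative to its level. It had 365, 366, 340.4 and 328 TPM in PGR-A KO and 363, 355, 365 and 363 TPM in WT, with a log2 difference of -0.05 (SE 0.06, 95% interval -0.19 to 0.09, limma adjusted p = 0.927). Exons of Ctnnb1 overlap the antisense gene Ulk4 over 14.6% of their length, and Ulk4 averaged 2.27 TPM. Vcl, vinculin, which ties adhesion sites to actin, had 144, 134, 76.7 and 141 TPM in PGR-A KO and 167, 122, 94.0 and 89.3 TPM in WT. The lowest of all libraries was replicate 3 of PGR-A KO, and the highest replicate 1 of WT (log2 difference 0.07, SE 0.25, limma adjusted p = 0.968). Exons of Vcl overlap those of the antisense gene Ap3m1 over 25.5% of their length, and Ap3m1 averaged 75.9 TPM; whether the authors' counting used strand is not given in the sources used here, so the level of Vcl is uncertain.

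The members differed in how far they varied across libraries. The highest library exceeded the lowest by at least 2 times in 12 of 33 genes (36.4%, against 22.6% of all genes tested). These were Itga2, Itga5, Itgb3, Cdh1, Cldn1, Ocln, Epha5, Efnb2, Sema3a, Slit2, Robo2 and Vcl. In 7 genes it was under 1.3 times: Itga1, Itga6, Itgav, Itgb1, Nectin3, Efnb1 and Ctnnb1. The others lay between these bounds. The median SD between replicates was 0.23 on the log2 scale for the members and 0.16 for all genes tested.

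An order of libraries that crossed the genotypes was seen in some members, though not in each of the variable ones. PGR-A KO replicate 3 was the lowest PGR-A KO library in 21 of 33 members (63.6%, against 39.4% of all genes tested). WT replicate 4 was the lowest WT library in 18 (54.5%, against 25.8%), and WT replicate 1 the highest WT library in 16 (48.5%, against 33.8%). In 9 members the 4 highest libraries were replicates 1, 2 and 4 of PGR-A KO with replicate 1 of WT (27.3%, against 12.6% of all genes), and these were Itga2, Itga5, Itgb3, Ncam1, Efnb2, Sema3a, Slit2, Robo2 and Vcl. Of the genes with a wide spread, Cdh1, Cldn1, Ocln and Epha5 did not have this order, and replicate 3 was the highest PGR-A KO library for Cdh1 and Ocln. In the reverse order, the same 4 libraries were the 4 lowest in 1 member (3.03%), against 1514 of the 14472 genes tested. The share of members was thus above that of all genes for the first order and below it for the reverse. Both orders were read from the data and are descriptions.

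**Figure D5:**
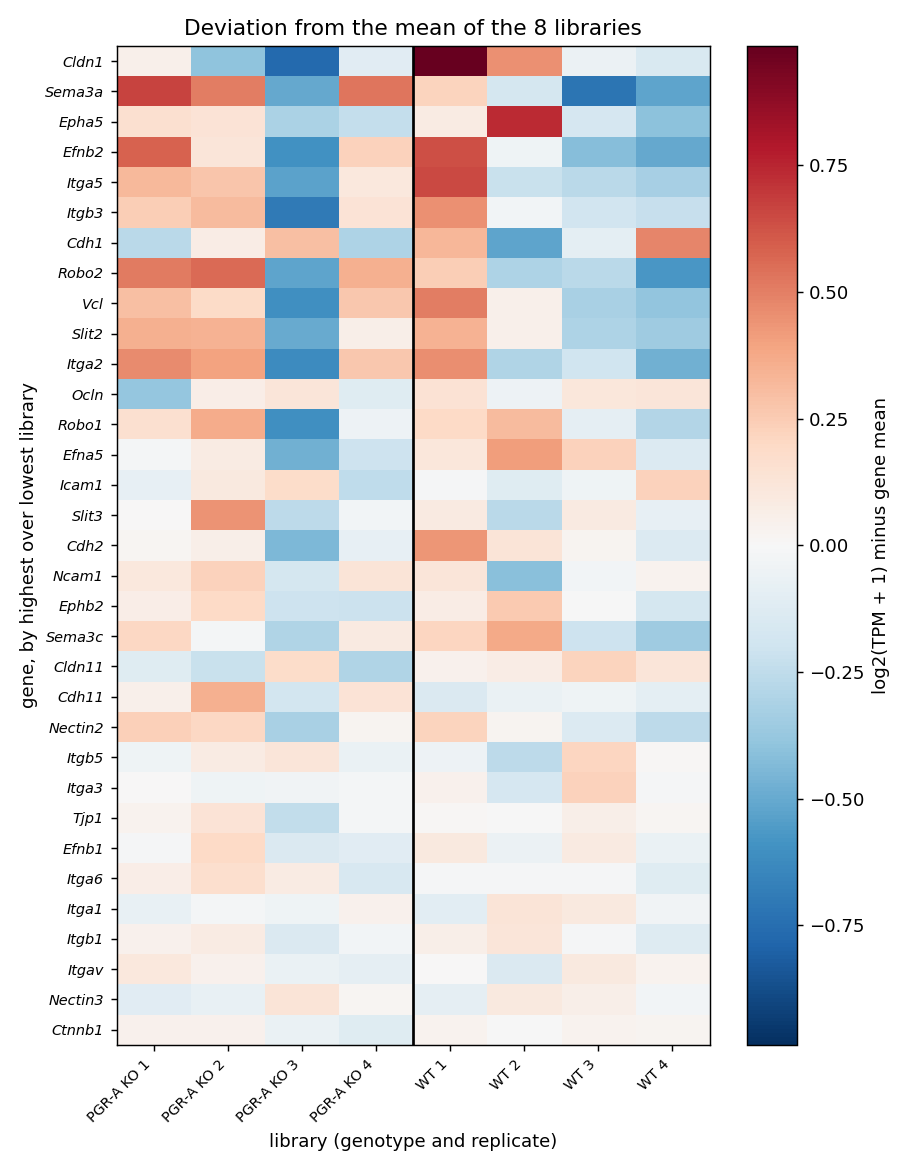
Deviation of log2(TPM + 1) from each gene's mean over the 8 libraries for the 33 genes tested, PGR-A KO left of WT, genes ordered by the ratio of the highest to the lowest library. Replicate 3 is low within PGR-A KO for 21 genes and replicate 1 high within WT for 16, and genes such as Ctnnb1 and Nectin3 are near 0 in all libraries.

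With replicate 3 of PGR-A KO and replicate 1 of WT both left out, an alternative chosen after the data were seen, 7 of the 33 members passed an adjusted p of 0.05 (21.2%), against 8.01% of 14114 genes tested in that fit, and all 7 were higher in PGR-A KO. They were Robo2 (log2 difference 0.86, limma adjusted p = 0.00809), Itga2 (0.70, 0.00935), Sema3a (1.04, 0.0117), Itga5 (0.50, 0.0144), Itgb3 (0.38, 0.0370), Efnb2 (0.63, 0.0498) and Vcl (0.47, 0.0499). The libraries left out were chosen from what they measured, so these p-values do not measure an effect of genotype.

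Other genes of the same pathways were taken from 9 lists of 156 genes, of which 126 were tested. Set against WT, 46 means were higher and 80 lower in PGR-A KO (63.5% lower, against 57.4% of all genes), and limma called 0 of them. With TMM factors the split was 58 higher and 68 lower, and with quantile normalization 59 and 67. At an unadjusted p under 0.05 there were 5 (3.97%, against 6.31% of all genes), all lower in PGR-A KO. The median log2 difference of the 126 genes was -0.05. The 5 were the leukocyte integrin subunit Itga4 (0.770 ± 0.146 TPM in PGR-A KO and 2.04 ± 0.874 TPM in WT), the laminin chain Lama5 (2.80 ± 0.592 TPM in PGR-A KO and 4.57 ± 1.02 TPM in WT), the integrin activator Fermt2 (94.4 ± 4.59 TPM in PGR-A KO and 107 ± 7.38 TPM in WT), the semaphorin Sema5a (84.6 ± 8.89 TPM in PGR-A KO and 117 ± 33.9 TPM in WT; SD, n = 4 each) and Thbs1, a matrix protein named after its values were seen (369 ± 54.8 TPM in PGR-A KO and 489.7 ± 101 TPM in WT). Their adjusted limma p ran from 0.636 to 0.783. With the mean and SD given, no PGR-A KO library of Itga4 reached the minimum of 1 TPM. Itga4 thus entered the test through its WT libraries alone, and its direction carries no weight.

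By list, the 10 tested integrin subunits outside the members were divided 0 higher and 10 lower, also with TMM factors, and 2 and 8 with quantile normalization, where 57.4%, 46.3% and 45.6% of all genes were lower. This list holds leukocyte integrins such as Itga4, Itgam and Itgb2, and Itga4 was tested through its WT libraries alone. Leukocyte markers had lower means in PGR-A KO for 8 of 9 genes (88.9%, against 57.4% of all genes). The part of leukocytes in the division was not tested. Itga9, also among the 10 lower in the main fit, was the highest of these integrins at 29.5 ± 5.23 TPM in PGR-A KO and 31.3 ± 5.46 TPM in WT (SD, n = 4 each). Focal adhesion genes were divided 9 higher and 9 lower (13 and 5 with TMM factors, 12 and 6 with quantile normalization), led by Flna, an actin crosslinker, at 307 ± 13.8 TPM in PGR-A KO and 322 ± 35.6 TPM in WT. Matrix ligands were divided 9 and 10 (11 and 8 with either scaling), led by Spp1, osteopontin, at 572 ± 209 TPM in PGR-A KO and 391 ± 175 TPM in WT (limma adjusted p = 0.837). Other cadherins and catenins were divided 3 higher and 9 lower (3 and 9 with either scaling), led by Ctnna1, alpha-catenin, at 121 ± 14.9 TPM in PGR-A KO and 125 ± 9.18 TPM in WT, with the lowest p in Afdn, an actin-binding nectin partner, at 47.7 ± 5.04 TPM in PGR-A KO and 55.6 ± 7.55 TPM in WT.

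Other immunoglobulin adhesion molecules were divided 6 higher and 7 lower (8 and 5 with TMM factors, 7 and 6 with quantile normalization), and of these Jam3 averaged 131 ± 24.5 TPM in PGR-A KO and 151 ± 34.7 TPM in WT and Nectin1 15.8 ± 2.62 TPM in PGR-A KO and 20.4 ± 4.09 TPM in WT. Other tight junction genes were divided 6 and 8 (7 and 7 with TMM factors, 8 and 6 with quantile normalization), and here the polarity protein Pard3 averaged 35.6 ± 3.05 TPM in PGR-A KO and 37.1 ± 4.04 TPM in WT. Eph receptors and ephrins outside the members were divided 4 and 6 (4 and 6 with TMM factors, 5 and 5 with quantile normalization), with Ephb4 at 22.9 ± 1.84 TPM in PGR-A KO and 22.9 ± 1.96 TPM in WT and Epha2 at 2.38 ± 0.509 TPM in PGR-A KO and 1.82 ± 0.310 TPM in WT. Semaphorins, plexins and neuropilins were divided 6 and 16 (8 and 14 with TMM factors, 7 and 15 with quantile normalization), with the receptor Plxnb2 at 119 ± 10.6 TPM in PGR-A KO and 128 ± 14.4 TPM in WT beside Sema5a given above. Slit, Robo and netrin genes outside the members were divided 3 and 5 (4 and 4 with either scaling), with the netrin receptor Neo1 at 61.4 ± 5.68 TPM in PGR-A KO and 66.3 ± 6.20 TPM in WT and the netrin Ntn4 at 21.3 ± 10.2 TPM in PGR-A KO and 33.6 ± 10.8 TPM in WT. All errors are SD (n = 4 each).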

How the data were processed

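The authors deposited a table of TPM for 8 libraries, per gene symbol, from paired-end reads of mRNA per the labels' protocols. Per the submitters' processing notes, mm10 was the build, and the tools were edgeR, limma, Salmon and FastQC. Their versions and roles, and the way transcripts became genes, are not given in the sources used. Libraries summed to between 994519 and 997022 TPM, and 0 columns of values were left out.

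limma 3.58.1 (R 4.3.3, intensity trend, no covariate) was run on log2(TPM + 1) for the 14472 genes that reached 1 TPM in 4 or more of 8 libraries, 2-sided, with Benjamini-Hochberg adjustment and a threshold of 0.05. Differences are PGR-A KO minus WT and understate the change of low genes. Counts of genes with higher or lower means also refer to means of log2(TPM + 1). Exact permutation tests ran over 70 assignments of libraries, with a smallest possible p of 0.0286. The steps were tested on simulated data. Positions are from GENCODE M21 (mm10), promoters from RefSeq (GRCm38.p6).

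The members and lists were chosen with earlier results of these data known. Values in every library are given for the highest member of each family and for members with an unadjusted p under 0.05; Sema3a, Itga2, Itga5, Vcl, Efna5 and Cldn11 were added after their values were seen. Of the other lists, the gene with the highest mean and the one with the lowest p were named, except 1 gene that is not reported here.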

Additional observations from a re-analysis of the deposited data

Results flagged for a closer look

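Each of the 34 genes has 1 group of 4 values per genotype, 68 in all. In 3 of them an end value was set off from the rest, and chance alone flags about 1 in 20. Itga5 stood at 105 TPM in WT replicate 1, and at 53.1 to 57.3 TPM in the other WT libraries. Itga6 stood at 56.4 TPM in WT replicate 4, with the others between 60.8 and 61.0 TPM. For Vcl, replicate 3 of PGR-A KO had 76.7 TPM, with the other PGR-A KO libraries between 134 and 144 TPM.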

How the results depend on the processing

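Whether the replicate numbers pair the libraries is not stated in the labels and is unknown. Same-numbered libraries correlated in their deviations at 0.36, -0.11, 0.39 and -0.29. PGR-A KO replicates 1, 2 and 4 each correlated best with WT replicate 1, and replicate 3 with WT replicate 4. The 0 members past the adjusted threshold stayed 0 in every planned setting, with array weights and with each library left out, and became 7 without PGR-A KO 3 and WT 1 together. Members at an unadjusted p under 0.05 were 1, and 0 with no filter, TMM factors, quantile normalization or limma without trend, 3 with the replicate block, 9 with array weights, 10 without PGR-A KO 3 and WT 1 together, and between 0 and 5 when 1 library was dropped (5 when it was replicate 3 of PGR-A KO, 2 for replicate 1 or 4 of WT, 0 for replicate 4 of PGR-A KO or replicate 2 of WT). The 3 with the block were Cldn1, Efna5 and Sema3a. The share of all genes at an unadjusted p under 0.05 also moved, from 6.31% to 9.45% with the block and 24.8% with array weights. It was 25.1% without PGR-A KO 3 and WT 1 together. With 1 library dropped it ran from 3.51% (replicate 4 of PGR-A KO) to 12.8% (replicate 1 of WT), and was 10.7% without replicate 3 of PGR-A KO. Genes called over all genes were 2, and 3 when 0.1 was added before the log, 1 when 5 was added, 16 with array weights, 1131 without both libraries and between 0 and 6 when 1 library was dropped (6 without replicate 3 of PGR-A KO, 0 without replicate 2 of WT). The 6-library fit and array weights were added after the data were seen. Of 284 values of the 15 members given in every library, 252 kept direction and call. The settings that changed the filter, the trend, the robust fit or the replicate block left each log2 difference as it was. Those settings could change a call but could not turn a direction. Directions turned for Itgb1 with TMM factors (0.018), array weights (0.056) and 6 libraries (0.037), Nectin3 with TMM factors (0.019) and quantile normalization (0.011), Sema3c with TMM factors (0.025), quantile normalization (0.014), array weights (0.24) and 6 libraries (0.15), and Tjp1 with 6 libraries (0.026). With 1 library left out, log2 differences crossed 0 for Itgb1 (-0.067 to 0.022), Nectin3 (-0.065 to 0.012), Tjp1 (-0.094 to 0.031), Sema3c (-0.13 to 0.11), Efnb2 (-0.00057 to 0.41), Itga5 (-0.012 to 0.31) and Vcl (-0.044 to 0.29). The 6 values that newly passed, for Efnb2 (0.63), Robo2 (0.86), Sema3a (1.04), Itga2 (0.70), Itga5 (0.50) and Vcl (0.47), came from 6 libraries; the cause was not tested. Over all settings, 13 of 33 members kept their direction: Itga2, Itga6, Cdh2, Cdh11, Ncam1, Cldn1, Cldn11, Ocln, Efna5, Sema3a, Slit2, Robo2 and Ctnnb1. Depth is unknown, which limits the low members most.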
